A study of Homo sapiens with 24 samples.

Results

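The PAX transcription factor family has 9 genes, PAX1 to PAX9, and all 9 were taken by symbol from the gene count table, which holds 61551 usable entries. The counts come from the human embryonic stem cell line H9 (WA09), in 4 genotypes: unedited cells (hHAR123, the WT), cells with HAR123 removed from both alleles by CRISPR (HAR123-KO), and cells in which the chimpanzee (cHAR123) or the mouse (mHAR123) ortholog replaces the human element. HAR123 is a human accelerated region inside an intron of SMG6, so exon counts do not check the edit. Each genotype was sequenced as untreated hESCs (ESC) and as neuroectoderm (ECTO) after 5 days in knockout serum replacement medium with Noggin at 500 ng/ml and SB431542 at 10 µM, which block BMP and activin or Nodal signaling, with 3 libraries per genotype and stage and 24 in all. The study used a pair of independent clones per genotype for RNA-seq, and the clone behind each library is not given in the sources used here, so the p-values measure the spread between these libraries only. In a supplementary table of the study, the cHAR123 and mHAR123 names in neuroectoderm are attached to the count columns the other way round. All values below follow the labels of the count columns.

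PAX proteins bind DNA through a paired domain and pattern the embryo, and the family falls into 4 subgroups by its domains. PAX3 and PAX7 carry a full homeodomain and act in the dorsal neural tube, the neural plate border and the neural crest. PAX2, PAX5 and PAX8 carry a partial homeodomain and act at the midbrain-hindbrain boundary, in the kidney and thyroid and, for PAX5, in B cells. PAX6 and PAX4 carry a full homeodomain and act in the forebrain and eye and in the endocrine pancreas, while PAX1 and PAX9 lack a homeodomain and act in the sclerotome and the pharyngeal pouches.

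Of the 9 genes, 4 carried nearly all PAX reads in neuroectoderm: PAX6, PAX3, PAX7 and PAX2. The bases just before their start sites are shown because these genes carry the results below. Each is the 250 bases upstream of the most 5′ RefSeq start of the gene (GRCh38.p14), written 5′ to 3′ on the strand of the gene, with capitals marking every match on either strand to one of 7 short motifs.

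PAX3, chr2:222298999-222299248, reverse strand: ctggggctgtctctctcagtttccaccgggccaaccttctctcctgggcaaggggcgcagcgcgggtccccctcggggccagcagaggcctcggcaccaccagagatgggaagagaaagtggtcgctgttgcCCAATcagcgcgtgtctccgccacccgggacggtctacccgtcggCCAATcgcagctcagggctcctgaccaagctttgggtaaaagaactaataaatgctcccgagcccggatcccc
PAX7, chr1:18630596-18630845, forward strand: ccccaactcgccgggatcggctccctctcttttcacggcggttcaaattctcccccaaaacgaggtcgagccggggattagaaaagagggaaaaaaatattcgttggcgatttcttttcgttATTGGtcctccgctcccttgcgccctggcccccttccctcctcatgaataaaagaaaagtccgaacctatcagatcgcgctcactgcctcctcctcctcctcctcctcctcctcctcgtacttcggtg
PAX2, chr10:100735146-100735395, forward strand: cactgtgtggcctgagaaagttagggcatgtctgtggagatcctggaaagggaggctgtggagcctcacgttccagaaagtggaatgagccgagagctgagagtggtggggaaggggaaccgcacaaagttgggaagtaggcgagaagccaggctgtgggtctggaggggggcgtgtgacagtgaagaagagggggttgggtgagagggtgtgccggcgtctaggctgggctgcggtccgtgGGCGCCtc
PAX6, chr11:31817962-31818211, reverse strand: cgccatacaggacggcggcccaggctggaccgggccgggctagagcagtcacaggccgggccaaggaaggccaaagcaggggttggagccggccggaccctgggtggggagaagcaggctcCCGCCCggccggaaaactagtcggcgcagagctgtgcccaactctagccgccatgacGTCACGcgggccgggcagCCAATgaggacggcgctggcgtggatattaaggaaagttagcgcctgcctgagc

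The motifs searched were the TATA box (TATAAA), the CCAAT box (CCAAT), the GC box (GGGCGG), a GC-rich SMAD site (GGCGCC), the TCF/LEF core (CTTTGA), a homeodomain core (TAATTA) and the core bound by paired domains (GTCACG), and matches of different motifs may overlap. PAX3 and PAX7 shared a CCAAT box, with 2 matches upstream of PAX3 and 1 upstream of PAX7, and PAX6 had 1 as well. A CCAAT match was present in 32% of the 34788 RefSeq windows of this length. PAX6 was the only one of the 4 with a GTCACG match, which 7.9% of all windows hold, and it also had a GC box, as 42.6% of windows do. PAX2 had a single GGCGCC match, which 16.4% of windows hold. None of the 4 windows held a TATA box, a TCF/LEF core or a homeodomain core, which were present in 10.8%, 11.2% and 4.37% of all windows. The 4 windows held 17 (PAX3), 18 (PAX7), 10 (PAX2) and 22 (PAX6) CpG dinucleotides, against a median of 11. A match is a description of letters and not of binding, and the counts do not show which start was used: RefSeq gives PAX6 9 windows and PAX2 2 windows. Of the 9 genes, 8 had a window in the table. The genes themselves span chr2:222199887-222298998 (PAX3, reverse strand, 7942 exon bases), chr1:18630846-18748866 (PAX7, forward strand, 6473 exon bases), chr10:100735396-100829944 (PAX2, forward strand, 6582 exon bases) and chr11:31784779-31817961 (PAX6, reverse strand, 20639 exon bases) in the GRCh38 annotation of the count table.

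Library totals ranged from 23334732 to 35198684 counts in ESCs (median 30028694) and from 21022748 to 25978892 in neuroectoderm (median 23849555). Levels are given as CPM, counts per 1000000 counts of the library, and between genes as CPM per kb of exon. The stage labels matched the stem cell and neuroectoderm markers: in hHAR123 the stem cell factor POU5F1 went from 1139 ± 13 CPM (SD, n = 3) in ESCs to 15.4 ± 0.93 (SD, n = 3) in neuroectoderm, and the neural progenitor gene HES5 was at 170 ± 5.5 CPM (SD, n = 3) in neuroectoderm. The endoderm factor SOX17 had no count in any neuroectoderm library, and the mesoderm factor TBXT had at most 3. Their lists were mixed. The 8 endoderm markers summed to 4.04 to 4.29 CPM in hHAR123 ESCs and 47.9 to 48.8 in hHAR123 neuroectoderm. There, 5 of them had at most 3 counts in every library. Between these stages 1 of 3 endoderm markers tested was called higher and 2 lower. Of 3 mesoderm markers tested, 1 was called higher and 1 lower.

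Undifferentiated hESCs held almost no PAX RNA. PAX6 and PAX7 had the most counts among the members at this stage, with 81 and 96 counts summed over the 12 ESC libraries. PAX6 had 1 to 14 counts per library (median 7) and PAX7 had 1 to 17 (median 8). PAX5, the B cell factor, had 1 to 14 counts, and PAX2, PAX3, PAX4, PAX8 and PAX9 had none in some libraries. PAX1 had 3 counts in 1 hHAR123 library and none in the other ESC libraries. A count of 0 allows up to 3 counts, which is 0.0852 to 0.129 CPM in ESC libraries and 0.115 to 0.143 CPM in neuroectoderm libraries. These limits cover counting error only.

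**Figure D1:**
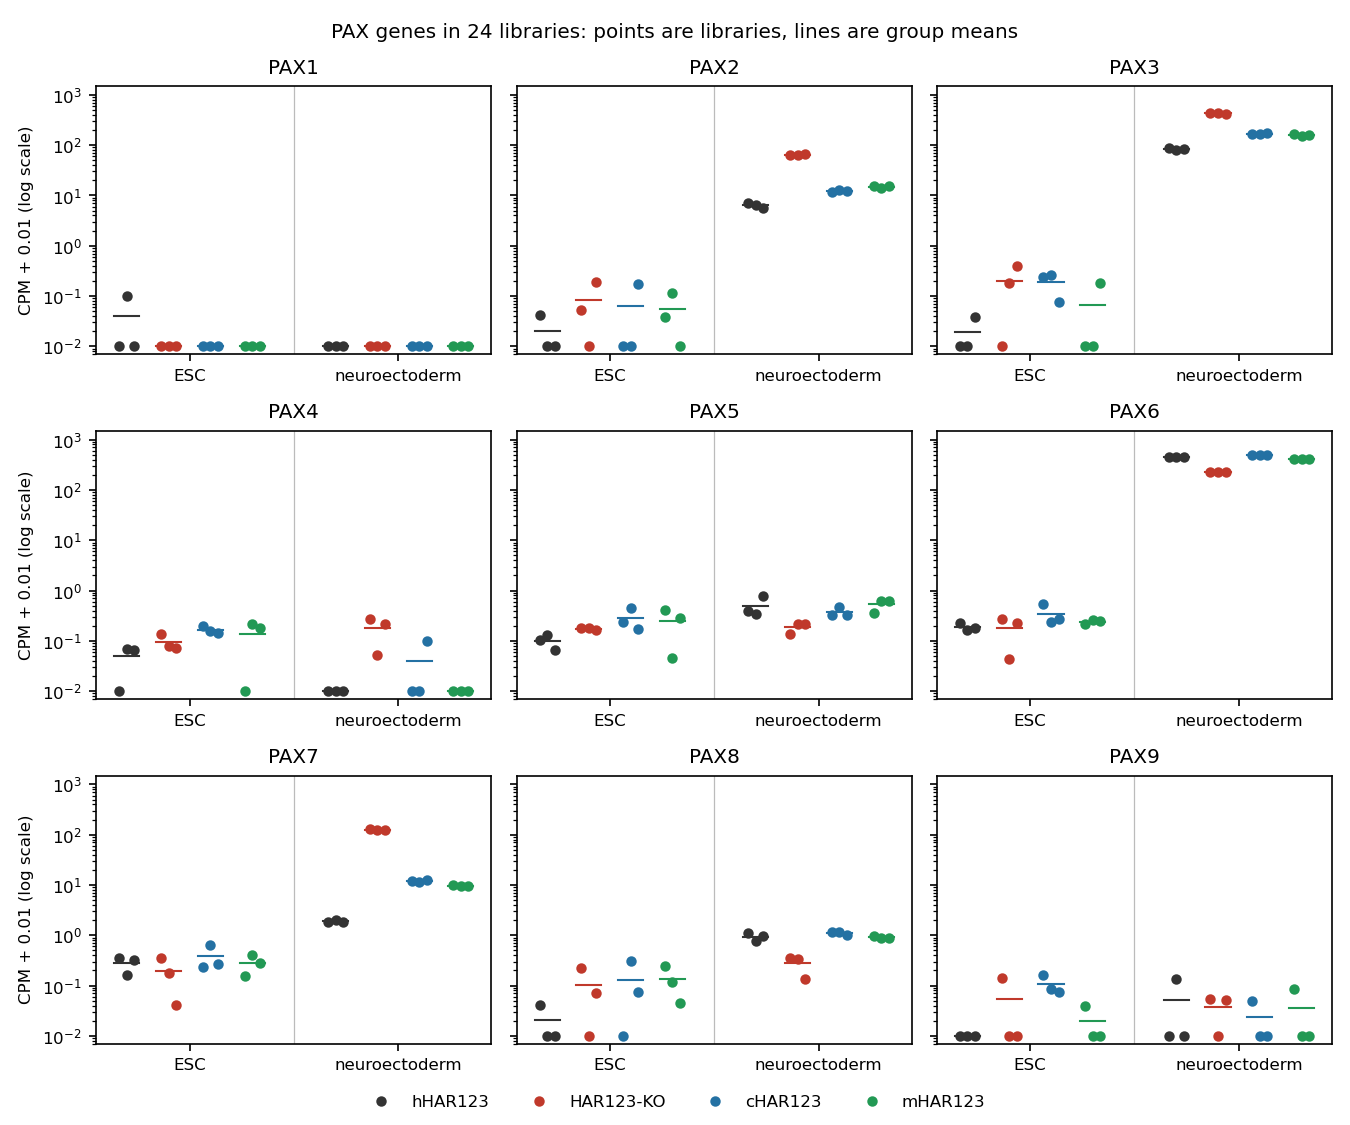
Level of each PAX gene in every library, as CPM plus 0.01 on a log axis, with ESC libraries on the left and neuroectoderm libraries on the right of each panel; points are libraries, horizontal lines group means and colors genotypes. PAX2, PAX3, PAX6 and PAX7 were at most 0.627 CPM in every ESC library and at least 1.84 CPM in every neuroectoderm library, and the HAR123-KO neuroectoderm libraries stood highest for PAX2, PAX3 and PAX7 and lowest for PAX6.

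The first comparison asks which PAX genes come on when unedited cells become neuroectoderm. A gene was called when the Benjamini-Hochberg adjusted p of the quasi-likelihood test in edgeR, taken over all genes tested, was under 0.01 and its level changed by more than 1 on the log2 scale in either direction. The study used the same cut-offs with DESeq2, which is an alternative here. SE is the standard error of a log2 fold change. PAX2, PAX3, PAX6, PAX7 and PAX8 passed the filter on low counts and were called higher, beside 45.9% of all genes tested called (24.6% higher). These members passed the filter through their neuroectoderm counts and so had to differ, and nothing is read from their share. Of the other 4, PAX5 had 3, 4 and 2 counts in ESCs and 8, 8 and 18 in neuroectoderm (ratio 5.51, interval 2.59 to 13.1), and a fit without the filter called it higher (log2 fold change 2.08, SE 0.56, edgeR adjusted p = 0.000482). In bulk RNA, more cells that express a gene and more RNA per cell cannot be told apart.

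PAX6, the eye and forebrain regulator, went from 7, 5 and 6 counts in the hHAR123 ESC libraries to 9516, 10770 and 10416 in the neuroectoderm libraries. By CPM the ratio was 2487, with an exact binomial 95% interval of 1573 to 4197, which like the other intervals of ratios covers counting error only. PAX3 went from 0, 0 and 1 to 1830, 1957 and 1926 counts, a ratio of 8331 whose interval of 1495 to 329099 is wide because a single ESC read sets it. Among the 22280 genes tested PAX3 had the 2nd highest fitted log2 fold change (12.24) and PAX6 the 9th (10.96). These ranks are a description only, since both genes passed the filter through their neuroectoderm counts. With single libraries left out, the PAX3 value ran from 11.78 to 13.98. PAX2 went from 1, 0 and 0 to 147, 154 and 134 counts (ratio 634, interval 113 to 25111). PAX8 went from 1, 0 and 0 to 23, 18 and 22 counts (ratio 91.9, interval 15.9 to 3685).

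Among the 5, PAX7 rose least in unedited cells. Its counts were 11, 5 and 11 in hHAR123 ESCs and 39, 48 and 43 in hHAR123 neuroectoderm, a ratio of 7.02 (interval 4.61 to 11.1), with no overlap between the stages. The log2 fold change was 2.5 (SE 0.30). PAX7 and its closest relative PAX3 thus differed in level in unedited neuroectoderm, at 0.292 ± 0.0124 and 10.5 ± 0.408 CPM per kb (SD, n = 3 each).

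In the edited genotypes PAX2, PAX3, PAX6 and PAX7 were called higher in each, and PAX8 in cHAR123 and mHAR123, beside 41.1% of all genes called in HAR123-KO (22% higher), 42.7% in cHAR123 (21.9% higher) and 41.9% in mHAR123 (21.3% higher). Here too the filter decided which members were tested, so nothing is read from their share. PAX5 was tested in mHAR123 and was not called (log2 fold change 0.89, SE 0.44, edgeR adjusted p = 0.0572). The ratio of neuroectoderm to ESC for PAX7 was 762 (interval 454 to 1394) in HAR123-KO, 32.8 (22.9 to 48.6) in cHAR123 and 37.4 (24.9 to 58.7) in mHAR123. For PAX6 it was 1399 (834 to 2560), 1484 (1027 to 2234) and 1798 (1176 to 2905) in the same order. The PAX7 intervals of the 3 edited genotypes lie above that of hHAR123, and those of PAX6 overlap it. Scaling by total counts in place of TMM moves the median of all genes by 0.169 to 0.293 on the log2 scale in these stage comparisons, far less than the changes of these members.

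The PAX make-up of neuroectoderm differed between the genotypes. In hHAR123, PAX6 was 64.5% ± 0.69 of the summed PAX level per kb of exon and PAX3 31.2% ± 0.58 (SD, n = 3 each). In HAR123-KO, PAX6 was 11.7% ± 0.088, PAX3 57.3% ± 0.43, PAX7 20.4% ± 0.43 and PAX2 10.4% ± 0.21 (SD, n = 3 each). In cHAR123, PAX6 and PAX3 were at 48.7% ± 0.72 and 43.3% ± 0.72, and in mHAR123 at 45.4% ± 0.84 and 45.6% ± 0.69 (SD, n = 3 each). The ratio of PAX3 to PAX6 per kb was 0.472 to 0.5 in the hHAR123 libraries, 4.88 to 4.89 in HAR123-KO, 0.859 to 0.914 in cHAR123 and 0.979 to 1.04 in mHAR123, with no overlap between any of the 4 genotypes. The per kb values divide PAX6 by its 20639 exon bases, and by counts alone the order of the members changes. By counts PAX6 was 82.8%, 26.9%, 71.7% and 68.9% of the family in hHAR123, HAR123-KO, cHAR123 and mHAR123, PAX7 was 14.7% in HAR123-KO, and the ratio of PAX3 to PAX6 was 0.186, 1.88, 0.342 and 0.387. With 3 libraries against 3, an exact permutation test cannot go below p = 0.10, so no p is given for these ratios.

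**Figure D2:**
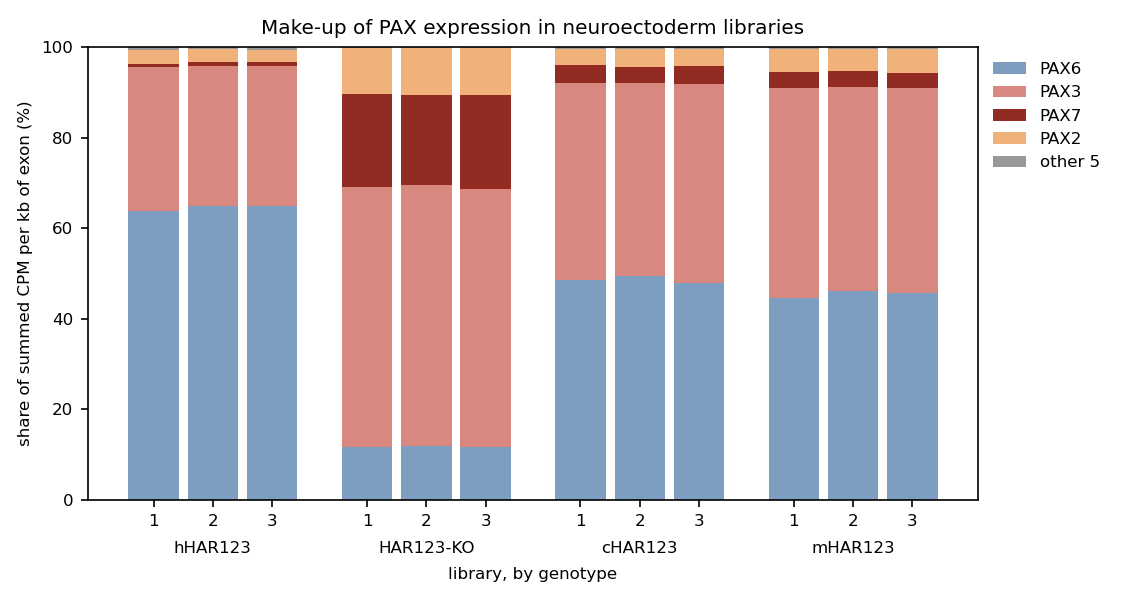
Share of each PAX gene in the summed CPM per kb of exon of the family (y axis, %), one stacked bar for each of the 12 neuroectoderm libraries, grouped by genotype. PAX6 makes up 63.7% to 65% of the bar in hHAR123 and 11.7% to 11.8% in HAR123-KO, and libraries of 1 genotype look alike.

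The effect of removing HAR123 was asked by comparing HAR123-KO with hHAR123 neuroectoderm. PAX7, PAX2 and PAX3 rose and PAX8 fell, so 4 of the 5 members tested were called, where 9.45% of all 21362 genes tested were (4.92% higher and 4.52% lower). PAX8 passed the filter on low counts only through its hHAR123 libraries, so its call adds nothing to this share. PAX6 was lower but did not reach the fold change threshold. In the same libraries 8 neural crest markers summed to 1871 to 1886 CPM in HAR123-KO and 223 to 228 CPM in hHAR123, and 8 neuroectoderm markers to 1622 to 1656 and 3716 to 3746 CPM, and their part in the PAX values was not tested.

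PAX7, a dorsal neural tube and neural crest regulator, stood at 1.85, 1.98 and 1.84 CPM in the hHAR123 libraries and at 127, 121 and 125 CPM in the HAR123-KO libraries. Every HAR123-KO library was far above every hHAR123 library. The log2 fold change of 6.09 (SE 0.073, edgeR adjusted p = 1.5e-50) was the 6th highest of all genes tested. PAX3, its relative, was at 87, 80.9 and 82.2 CPM in hHAR123 and at 435, 432 and 422 CPM in HAR123-KO, again without overlap. It rose by 2.42 on the log2 scale (SE 0.034, edgeR adjusted p = 1.33e-47). The relative level of the pair changed too: PAX7 per kb was 0.0279 ± 0.002 of PAX3 in hHAR123 and 0.355 ± 0.01 in HAR123-KO (SD, n = 3 each).

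PAX2, an early factor of the midbrain-hindbrain boundary, was at 6.99, 6.36 and 5.72 CPM in hHAR123 and at 64.2, 64.6 and 65.3 CPM in HAR123-KO. The 2 groups did not overlap, and the log2 fold change was 3.4 (SE 0.068, edgeR adjusted p = 6.83e-41). PAX8, a relative of PAX2, moved the other way. It had 23, 18 and 22 counts in hHAR123 and 8, 8 and 3 in HAR123-KO, and fell by 1.72 on the log2 scale (SE 0.39, edgeR adjusted p = 0.000176). DESeq2 gave PAX8 an adjusted p of 0.0101, just outside the threshold. PAX5 had 8, 8 and 18 counts in hHAR123 and 3, 5 and 5 in HAR123-KO, which is too few to be tested under the filter. Without the filter its log2 fold change was −1.37 (SE 0.51, edgeR adjusted p = 0.027).

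PAX6 was at 453, 445 and 445 CPM in hHAR123 and at 231, 230 and 224 CPM in HAR123-KO. All 3 HAR123-KO libraries were lower by nearly the same amount. The log2 fold change was −0.92 (SE 0.030, edgeR adjusted p = 1.44e-31), past the p threshold, as 44.1% of all genes tested were, and short of the fold change threshold. PAX4, the pancreatic relative of PAX6, had no count in any hHAR123 neuroectoderm library and 6, 1 and 5 counts in HAR123-KO, and was not tested under the filter (adjusted p = 0.0106 without it, edgeR). PAX9 had 0 to 3 counts per neuroectoderm library and PAX1 none, in any genotype.

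**Figure D3:**
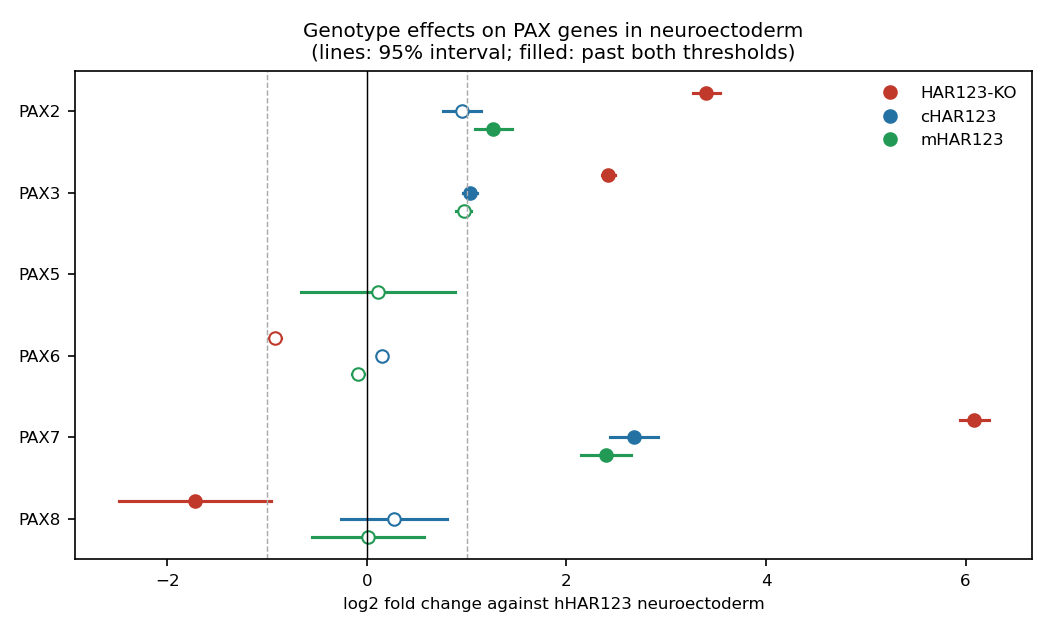
Log2 fold change against hHAR123 in neuroectoderm (x axis) for the PAX genes that passed the filter (rows), with 95% intervals from the standard error; colors are genotypes, filled points passed both thresholds and dashed lines mark a log2 fold change of 1 in either direction. PAX7 lies farthest from 0 in every genotype (6.09, 2.68 and 2.40), and PAX6 and PAX8 lie below 0 in HAR123-KO.

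The libraries labelled cHAR123 and mHAR123 ask what changes when another ortholog takes the place of the human element. These comparisons use the same hHAR123 libraries as the HAR123-KO comparison, so their values are set side by side and not tested against each other. In cHAR123, 2 of 5 members tested were called, PAX7 and PAX3, both higher, where 0.978% of all 21275 genes tested were (0.522% higher). In mHAR123, 2 of 6 members tested were called, PAX7 and PAX2, both higher, where 1.03% of all 21220 genes tested were (0.603% higher).

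PAX7 was at 12.2, 11.6 and 12.3 CPM in cHAR123 and at 10.1, 9.48 and 9.56 CPM in mHAR123. Both groups lie above all hHAR123 libraries and below all HAR123-KO libraries. Its log2 fold change against hHAR123 was 2.68 in cHAR123 (SE 0.12, edgeR adjusted p = 5.1e-21), the highest of all genes tested there. In mHAR123 it was 2.40 (SE 0.13, edgeR adjusted p = 6.97e-18), the 8th highest.

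PAX3 was at 170, 164 and 171 CPM in cHAR123 and at 164, 154 and 157 CPM in mHAR123, above all hHAR123 libraries in both. The log2 fold changes, 1.03 in cHAR123 (SE 0.036, edgeR adjusted p = 3.97e-25) and 0.97 in mHAR123 (SE 0.039, edgeR adjusted p = 9.16e-22), lie on either side of the fold change threshold, and their 95% intervals, 0.96 to 1.10 and 0.89 to 1.05, both include it. PAX2 lay on either side of it in the other order. It was at 11.8, 12.6 and 12.1 CPM in cHAR123 (log2 fold change 0.95, SE 0.096, edgeR adjusted p = 2.4e-10) and at 15.4, 14 and 15.2 CPM in mHAR123 (1.27, SE 0.093, edgeR adjusted p = 1.14e-13). Without replicate 1 of hHAR123, PAX2 was at 1.01 in cHAR123 and was called.

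PAX6 did not fall in cHAR123: its libraries held 494, 496 and 486 CPM, all above hHAR123, a log2 fold change of 0.15 (SE 0.026, edgeR adjusted p = 2.22e-05), past the p threshold, as 9.89% of all genes tested were. In mHAR123 it was at 409, 409 and 410 CPM, all below hHAR123, with a log2 fold change of −0.09 (SE 0.030, edgeR adjusted p = 0.0343). PAX8 had 29, 27 and 22 counts in cHAR123 and 25, 21 and 20 in mHAR123. Its log2 fold changes were 0.27 (95% interval −0.26 to 0.80) and 0.01 (−0.55 to 0.57), so a change of the size seen in HAR123-KO lies outside both intervals. PAX5 had 8, 11 and 7 counts in cHAR123, where it was not tested, and 9, 15 and 14 in mHAR123, a log2 fold change of 0.11 (SE 0.39, edgeR adjusted p = 0.881). PAX4 had 0, 0 and 2 counts in cHAR123 and none in mHAR123.

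Both ortholog genotypes were also compared with HAR123-KO, and these 2 comparisons share the HAR123-KO libraries. In cHAR123 all 5 members tested were called, where 7.61% of all genes tested were. PAX7 was lower by 3.38, PAX2 by 2.42 and PAX3 by 1.36 on the log2 scale, and PAX6 and PAX8 were higher by 1.10 and 2.02 (edgeR adjusted p from 4.58e-57 to 3.81e-06). In mHAR123, 4 of 5 were called, where 7.33% of all genes tested were. PAX7 was lower by 3.66, PAX2 by 2.11 and PAX3 by 1.42, and PAX8 was higher by 1.76 (edgeR adjusted p from 1.46e-44 to 0.000138). PAX6 was higher by 0.86 (SE 0.027, edgeR adjusted p = 1.53e-30), short of the fold change threshold. PAX8 passed the filter in both comparisons only through its ortholog libraries, so its calls add nothing to these shares.

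The ortholog genotypes differed little from each other. None of the 6 members tested was called between mHAR123 and cHAR123, where 0.261% of all genes tested were, with edgeR or with DESeq2. PAX6 was lower in mHAR123 by 0.24 (SE 0.023, edgeR adjusted p = 2.5e-11) and PAX2 higher by 0.31 (SE 0.077, edgeR adjusted p = 0.00532), both past the p threshold, as 4.2% of all genes tested were. PAX7 (−0.29, edgeR adjusted p = 0.0237) and PAX3 (−0.06, edgeR adjusted p = 0.232) did not pass it. At an unadjusted edgeR p under 0.05, PAX2, PAX3, PAX6 and PAX7 passed. The share of all genes passing that looser rule was not counted, so nothing is read from it. By group mean the order of the levels was HAR123-KO above cHAR123 above mHAR123 above hHAR123 for PAX7 and PAX3. For both genes cHAR123 and mHAR123 did not differ past the adjusted p threshold. Their PAX3 libraries overlapped, at 164.2 to 171 CPM in cHAR123 and 154.1 to 164.4 CPM in mHAR123. For PAX2 it was HAR123-KO, mHAR123, cHAR123 and hHAR123, and for PAX6 cHAR123, hHAR123, mHAR123 and HAR123-KO, where mHAR123 lay below hHAR123 in every library (95% interval of the log2 difference −0.15 to −0.03) without passing the adjusted p threshold.

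In ESCs, few members could be compared between genotypes. PAX7 was tested in HAR123-KO (8, 5 and 1 counts against 11, 5 and 11 in hHAR123) and in mHAR123 (5, 11 and 8 counts). Its log2 fold changes were −0.72 (95% interval −1.78 to 0.34, edgeR adjusted p = 0.41) and −0.09 (−0.96 to 0.79, edgeR adjusted p = 0.912), and neither was called, where 1.18% and 1.23% of all genes tested were. No member passed the filter in cHAR123, where 0.85% of genes were called. PAX3 had 0, 5 and 13 counts in HAR123-KO ESCs and 0, 0 and 1 in hHAR123 ESCs, and a fit without the filter called it (log2 fold change 3.86, SE 1.10, edgeR adjusted p = 0.00688). In cHAR123 ESCs PAX3 had 6, 7 and 2 counts, and the same fit did not call it (3.68, SE 1.18, edgeR adjusted p = 0.0174).

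An interaction fit over 12 libraries asked whether a genotype effect was the same at both stages. The PAX7 effect was larger in neuroectoderm than in ESCs by 6.81 on the log2 scale in HAR123-KO (SE 0.56, edgeR adjusted p = 1.12e-14), by 2.28 in cHAR123 (SE 0.45, edgeR adjusted p = 0.000231) and by 2.51 in mHAR123 (SE 0.45, edgeR adjusted p = 3.54e-05). PAX8 differed in HAR123-KO, by −4.31 (SE 1.29, edgeR adjusted p = 0.00556), on 1, 0 and 0 counts in hHAR123 ESCs and 5, 0 and 2 in HAR123-KO ESCs. These were the only calls: 2 of 5 members tested in HAR123-KO (7.87% of all genes called), 1 of 6 in cHAR123 (0.797%) and 1 of 6 in mHAR123 (0.967%). PAX8 passed the filter in HAR123-KO only through its hHAR123 neuroectoderm libraries, so its call adds nothing to that share. PAX2 and PAX3, which had no count in some ESC libraries, were not called, and at such counts the difference between stages is poorly determined. PAX6 was not called either, at −0.77 (SE 0.49) in HAR123-KO, −0.68 (SE 0.38) in cHAR123 and −0.36 (SE 0.38) in mHAR123. Its 1 to 14 counts per ESC library were about as few as the 1 to 17 of PAX7. The ESC side of the called PAX7 effects thus rests on few counts too. The PAX7 call in cHAR123 was lost without replicate 1 (1.81, edgeR adjusted p = 0.0184) and without replicate 3 (1.91, edgeR adjusted p = 0.0307) of each condition, and the PAX8 call without replicate 1 (edgeR adjusted p = 0.0958), without replicate 3 (edgeR adjusted p = 0.0509) and with DESeq2 (adjusted p = 0.011).

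The partners of PAX genes were followed in 4 lists, whose counts stand beside the 9.45% of all genes tested that were called in HAR123-KO, 0.978% in cHAR123 and 1.03% in mHAR123. The first holds 14 neural plate border and neural crest factors that act with PAX3 and PAX7, and in HAR123-KO neuroectoderm 12 of 14 rose, 1 fell and 1 was not called, with a median log2 fold change of 3.58 against 0.00 over all genes. MITF passed the filter on low counts only through its HAR123-KO libraries and DLX5 only through its hHAR123 libraries. Both had to differ, so their calls add nothing to this share. FOXD3, a neural crest specifier, was at 2.5 ± 0.2 CPM in hHAR123 and 188 ± 0.34 in HAR123-KO (SD, n = 3 each), and rose by 6.27 (SE 0.06, edgeR adjusted p = 1.14e-53). MITF, the pigment cell regulator and a known PAX3 target, had no count in the hHAR123 libraries and 42, 42 and 31 counts in HAR123-KO, at least 36.7-fold higher when hHAR123 is set at 3 counts over the group (edgeR adjusted p = 8.3e-14). DLX5 was the one that fell (−2.48, SE 0.38, edgeR adjusted p = 2.57e-07), SOX9 rose least among those called (1.08), and ZIC2 was not called (0.73). In cHAR123, 8 of 13 rose (median 1.07), with FOXD3 at 2.40 and TFAP2B at 2.08 the highest of those called and MSX2 at 1.07 and ZIC1 at 1.02 the lowest, and in mHAR123, 6 of 13 rose (median 0.98), with FOXD3 at 2.95 and TFAP2B at 2.58 the highest of those called and ETS1 at 1.98 and TFAP2A at 1.01 the lowest. None fell in either, and the median of all genes was −0.01 in both.

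The list of 10 midbrain-hindbrain boundary and dorsal midbrain factors that act with PAX2, PAX5 and PAX8 was mixed. In HAR123-KO, 4 of 8 tested rose and 2 fell (median 1.17). FGF17 passed the filter only through its HAR123-KO libraries and FGF8 only through its hHAR123 libraries, so their calls add nothing to this share. LMX1B, a dorsal midbrain and roof plate factor, was at 3.85 ± 0.0057 CPM in hHAR123 and 85.7 ± 4.3 in HAR123-KO (SD, n = 3 each), a rise of 4.53 (SE 0.07, edgeR adjusted p = 2.02e-45). WNT1, the ligand of the dorsal midbrain and the boundary, rose by 4.25 (SE 0.06, edgeR adjusted p = 1.66e-48), and EN1 and FGF17 rose too. FGF8, the signal of the boundary itself, fell by 1.95 (SE 0.26, edgeR adjusted p = 5.76e-09), and SPRY1, a feedback inhibitor of FGF signaling, by 1.47 (SE 0.08, edgeR adjusted p = 5.55e-23). In cHAR123, WNT1 (1.48) and LMX1B (1.45) rose among 7 tested (median 0.09), and in mHAR123 LMX1B (1.48) rose among 7 (median 0.47).

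Forebrain and eye field factors that act with PAX6 moved the other way. In HAR123-KO, 7 of 9 tested fell and none rose (median −1.97). RAX and LHX2, which are among those that fell, passed the filter only through their hHAR123 libraries, so their calls add nothing to this share. NR2E1, a forebrain progenitor factor, went from 24.9 ± 0.96 to 0.532 ± 0.10 CPM (SD, n = 3 each), a log2 fold change of −5.49 (SE 0.14, edgeR adjusted p = 2.02e-36). RAX, the eye field factor, fell by 4.10 (SE 0.19, edgeR adjusted p = 5.28e-25). SOX2 fell by 1.73, and HESX1 (−0.82) was not called. In cHAR123, RAX (−1.16) fell (list median −0.48), and in mHAR123 none of 9 was called (median −0.19).

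The PAX-SIX-EYA-DACH network was mixed in HAR123-KO (median 0.23 over 10 tested). EYA4, a transcriptional coactivator, rose by 3.36 (SE 0.09, edgeR adjusted p = 2.14e-34) and DACH2 by 2.67 (SE 0.26, edgeR adjusted p = 7.7e-13), and SIX3, an eye and forebrain factor that the forebrain list also holds, fell by 2.30 (SE 0.19, edgeR adjusted p = 2.84e-15). None of 9 tested in cHAR123 (median 0.02) and none of 10 in mHAR123 (median 0.10) was called.

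**Figure D4:**
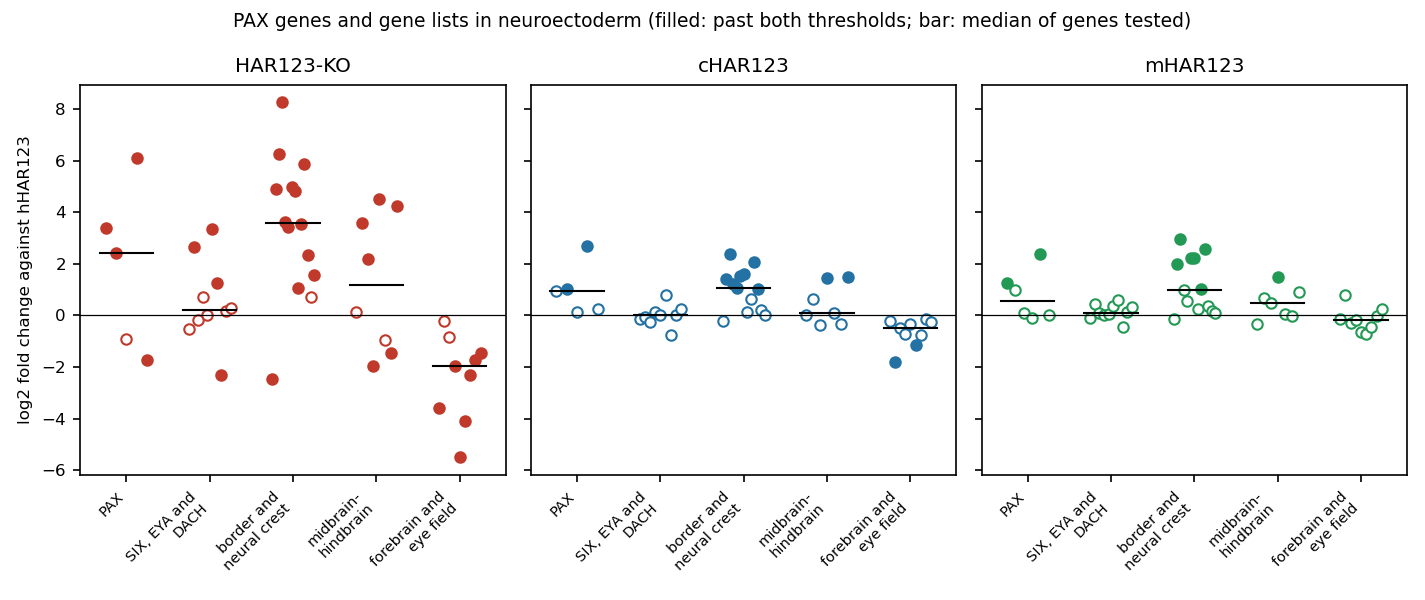
Log2 fold change against hHAR123 in neuroectoderm (y axis) for the PAX genes and the 4 lists of partner genes, one panel per genotype; points are genes that passed the filter, filled when past both thresholds, and bars are medians. In HAR123-KO the border and neural crest list has a median of 3.58 and the forebrain and eye field list one of −1.97; MITF, the highest point there, has no count in hHAR123, so its fitted value is not a measured fold.

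During differentiation of unedited cells the same lists are read beside the 45.9% of all genes tested that were called (24.6% higher). Some list genes passed the filter through 1 stage only, so their calls add nothing to these shares. TFAP2B, WNT1, EN1, NR2E1 and FEZF2 did so through neuroectoderm, and MITF, GBX2 and DACH2 through ESCs. Of the border and crest factors 9 of 14 rose and 4 fell (median 2.54 against 0.05 over all genes), with TFAP2B at least 206-fold higher than in ESCs and TFAP2A higher by 6.21 on the log2 scale. MITF, which had 29, 38 and 33 counts in ESCs, was at least 22.9-fold lower in neuroectoderm, and FOXD3 fell by 4.26. Of the midbrain-hindbrain factors 5 of 7 tested rose and 1 fell (median 2.59): WNT1 was at least 250-fold and EN1 at least 26.2-fold higher, FGF8 rose least (1.21), and GBX2 fell by 3.75. Among the forebrain and eye field factors 8 of 9 rose and 1 fell (median 2.52), led by NR2E1 (10.50, on 1 ESC count) and FEZF2 (10.38), SOX2 rose least (1.10), and HESX1 fell by 1.71. Of the PAX-SIX-EYA-DACH network genes 4 of 11 rose and 1 fell (median 0.07), a share near that of all genes, with DACH1 (6.70) and SIX3 (4.38) the highest, EYA1 (1.44) the lowest that rose and DACH2 (−2.77) the one that fell.

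Cell type markers differed between the genotypes as well, and their part in the PAX values was not tested. All 8 neural crest markers were called higher in HAR123-KO than in hHAR123 neuroectoderm, and their summed level was 1871 to 1886 CPM in the HAR123-KO libraries against 223 to 228 in hHAR123, 314 to 316 in cHAR123 and 357 to 367 in mHAR123. This sum was thus higher in mHAR123 than in cHAR123, while mean PAX7 was lower there (9.709 against 12.05 CPM). In the crest list, SOX10, the defining factor of migrating crest, was at 11.9 ± 0.33, 327 ± 3.6, 35.4 ± 1.9 and 54.2 ± 0.70 CPM (SD, n = 3 each) in hHAR123, HAR123-KO, cHAR123 and mHAR123, and no crest marker was at 3 counts or fewer in every neuroectoderm library of a genotype. The crest list shares ETS1, FOXD3, SNAI2, SOX10 and TFAP2B with the border list above. Of 8 neuroectoderm markers 5 were called lower in HAR123-KO, with a summed level of 1622 to 1656 CPM against 3716 to 3746 in hHAR123, 3586 to 3624 in cHAR123 and 3454 to 3494 in mHAR123. Surface ectoderm and placode markers summed to 267 to 277 CPM in HAR123-KO and 199 to 206 in hHAR123, with KRT5 at 0 in both, and mesoderm markers summed to 4.41 to 5.03 CPM in HAR123-KO, 3.84 to 4.01 in hHAR123, 2.6 to 4.23 in cHAR123 and 4.39 to 5.51 in mHAR123, with 2 of 3 tested called higher in HAR123-KO. Markers of the sclerotome and pharyngeal pouch, where PAX1 and PAX9 are known, summed to 8.16 to 10.3 CPM, and those of B cells, endocrine pancreas, thyroid and kidney to 13.5 to 14.4 CPM in HAR123-KO, where 2 of 3 tested were called higher, and to 5.77 to 9.17 CPM in the other genotypes, with INS and WT1 at 3 counts or fewer in every neuroectoderm library.

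Genes that share a locus with a PAX gene were read as well, since no source used here says whether counting used strand. The exons of ELP4, on the opposite strand, share 5241 bases with those of PAX6, 25.4% of the PAX6 exon bases. ELP4 was at 100 ± 9.3 CPM in hHAR123 neuroectoderm, 48.9 ± 1.5 in HAR123-KO, 87.5 ± 3.3 in cHAR123 and 80.7 ± 4.1 in mHAR123 (SD, n = 3 each). It was lower in HAR123-KO by 0.98 on the log2 scale (SE 0.05, edgeR adjusted p = 2.68e-24), close to the −0.92 of PAX6, and reads of the shared bases cannot be assigned to one of the 2 genes without strand. PAUPAR, a noncoding RNA antisense to PAX6 that shares 191 bases with it, had 62, 72 and 76 counts in hHAR123 and 33, 26 and 27 in HAR123-KO and fell by 1.30 (SE 0.20, edgeR adjusted p = 1.87e-07).

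CCDC140 lies within the span of PAX3 on the other strand and shares no exon base with it. Its counts were 14, 12 and 5 in hHAR123, 65, 58 and 53 in HAR123-KO, 22, 14 and 19 in cHAR123 and 27, 28 and 15 in mHAR123, and no ESC library had any. It rose by 2.48 in HAR123-KO (SE 0.28, edgeR adjusted p = 5.93e-11), beside 2.42 for PAX3, and was not called in cHAR123 (0.78) or mHAR123 (1.11, edgeR adjusted p = 0.0209). PAX8-AS1, which shares 22.4% of the exon bases of PAX8, had 0 to 4 counts per neuroectoderm library. SLC25A21 shares 25.4% of those of PAX9 and had 61 to 91, so the few PAX9 counts are uncertain.

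**Figure D5:**
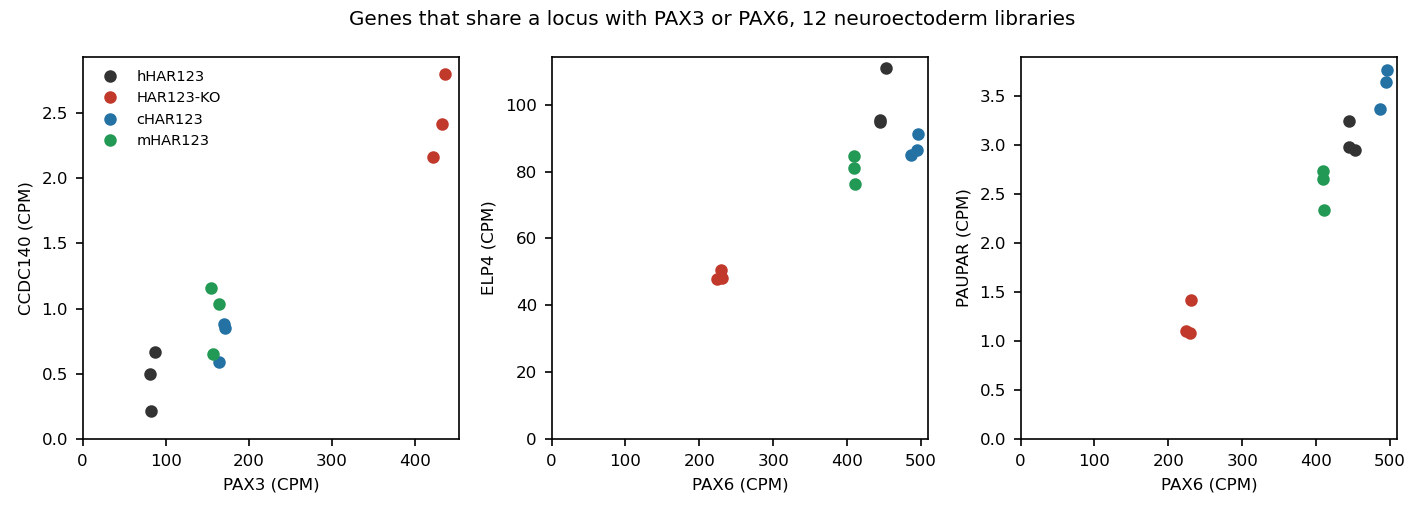
CPM of CCDC140 against PAX3, and of ELP4 and PAUPAR against PAX6, in the 12 neuroectoderm libraries; each point is a library and colors are genotypes. The HAR123-KO libraries lie apart from the others in all 3 panels, at 422 to 435 CPM for PAX3 and 224 to 231 CPM for PAX6.

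Each member that reached 1 CPM in some condition was set beside all 24302 genes kept for this, by Pearson's r of log2 CPM (prior count 2), as a description only: the points are libraries of 4 genotypes, and most of the spread is between genotypes or stages. Over the 12 neuroectoderm libraries, PAX3 and PAX7 were each the gene most like the other (r = 0.9991), followed by UNC5C (0.998) and RELN (0.9979) for PAX3 and by UNC5C (0.9974) and ITGA8 (0.9972) for PAX7. PAX2 was most like ETS1 (0.9981), COL27A1 (0.9976) and TFAP2C (0.9976), PAX6 most like VAT1L (0.9981), CACHD1 (0.9975) and NRIP3 (0.9972), and PAX8 most like SLC27A3 (0.9784), ELOVL2 (0.9733) and DTX1 (0.9732). Among the members themselves, PAX2 had r = 0.985 with PAX3 and 0.982 with PAX7, PAX6 had r = 0.938 with PAX8, and PAX6 had r from −0.921 to −0.845 with PAX2, PAX3 and PAX7. PAX8 had r = −0.848 with its relative PAX2 over these libraries, on 3 to 29 PAX8 counts per library.

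Over all 24 libraries, where the stages dominate, PAX6 was most like MAPK10 (0.998), EXOC4 (0.9979) and TSPAN18 (0.9979), and PAX3 most like FLRT3 (0.9949), NMT2 (0.9923) and NTN1 (0.992). PAX2 was most like DCC (0.9938), FAM222A (0.993) and NAV3 (0.9913), PAX7 most like DGKD (0.9888), SDC3 (0.9847) and DISP3 (0.9839), and PAX8 most like REEP2 (0.9475), C15orf61 (0.9459) and CPT1C (0.9441). The sign of r between PAX6 and PAX3 depends on the libraries taken, at 0.975 over 24 and −0.849 over the 12 neuroectoderm libraries. That between PAX2 and PAX8 does so too, at 0.753 and −0.848.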

How the data were processed

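After ribosomal RNA depletion and paired-end sequencing of directional libraries, the authors aligned reads with STAR 2.5.2b to GRCh38 (Ensembl annotation) and counted exon reads per gene with featureCounts; the deposited values are these raw counts, not normalized. Whether counting used strand is not given in the sources used here, which leaves overlapping genes on opposite strands uncertain. One broken entry of 61552 was left out. Replicate pairs differed beyond sampling noise (chi-square per degree of freedom 1.4 to 4.97); none was a duplicate.

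Counts were analysed with R 4.3.3 and edgeR 4.0.16. Each pair of groups was fitted alone (6 libraries) with filterByExpr, TMM scaling and the quasi-likelihood F test with Benjamini-Hochberg adjustment, and interactions used 12 libraries. A standard error was taken as the absolute log2 value over the square root of F. The tests were tried on simulated data first. The alternatives were DESeq2 1.42.0, its size factors, no filter, one fit per stage, a replicate block, an adjusted p of 0.05 and leaving out each library. All 9 members were named, and in each list the 2 highest and 2 lowest called genes; some are not reported here, and other list genes and the single markers were named after their values were seen. Members and lists were chosen with earlier results of these data known. Upstream sequences are from RefSeq (GRCh38.p14).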

Additional observations from a re-analysis of the deposited data

Results flagged for a closer look

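The genotype effect on PAX7 differed between the stages in all 3 edited genotypes by edgeR's interaction test: it was larger in neuroectoderm than in ESCs by 6.81 on the log2 scale in HAR123-KO (SE 0.56, edgeR adjusted p = 1.12e-14), by 2.28 in cHAR123 (SE 0.45, edgeR adjusted p = 0.000231) and by 2.51 in mHAR123 (SE 0.45, edgeR adjusted p = 3.54e-05). The 3 tests share the hHAR123 libraries, and PAX7 had only 1 to 17 counts per ESC library. The PAX8 effect differed by −4.31 in HAR123-KO (SE 1.29, edgeR adjusted p = 0.00556), on 1 count in hHAR123 ESCs and 7 in HAR123-KO ESCs. The PAX7 call in cHAR123 was lost without replicate 1 (edgeR adjusted p = 0.0184) or replicate 3 (edgeR adjusted p = 0.0307), and the PAX8 call without replicate 1 (edgeR adjusted p = 0.0958) or replicate 3 (edgeR adjusted p = 0.0509) and with DESeq2 (adjusted p = 0.011).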

How the results depend on the processing

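Most members had few counts per ESC library, which limits what can be compared there. Under the alternatives, 175 counts of called PAX genes stayed within 1.5 times the reported one and 8 did not, and 778 log2 fold changes kept their direction and their side of the thresholds, 13 changed sign, 6 lost the call and 3 gained it. Without the filter, 1 PAX gene was called in HAR123-KO ESCs (0 with it). With DESeq2, 1 was called in the HAR123-KO interaction (2 with edgeR), and an adjusted p of 0.05 gave 2 in the cHAR123 and 2 in the mHAR123 interaction (1 each). Leaving out replicates gave 1 to 2 PAX calls in the HAR123-KO interaction and 0 to 1 in that of cHAR123, where all genes called ran from 110 to 153 (186 reported).

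DESeq2 called fewer genes in all: 152, 78 and 121 in ESCs for HAR123-KO, cHAR123 and mHAR123, 115 and 138 in neuroectoderm for cHAR123 and mHAR123, 14 between those 2 and 119 in the cHAR123 interaction. An adjusted p of 0.05 gave 377 in the cHAR123 and 487 in the mHAR123 interaction. The cause of these differences was not tested.

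Values that changed sign were uncalled and ranged, with replicates left out, from −0.43 to 0.24 for PAX7 in mHAR123 ESCs, and in mHAR123 neuroectoderm from −0.12 to 0.13 for PAX8 and from −0.12 to 0.59 for PAX5. In the interactions PAX2 ranged from −1.15 to 3.11 in HAR123-KO, from −3.38 to 3.10 in cHAR123 and from −2.40 to 1.31 in mHAR123, and PAX3 from −1.24 to 0.97 in mHAR123.

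Deviations of samples with the same replicate number were weakly correlated in all 13 comparisons (from −0.0232 to 0.0371). The matching number correlated best for all 3 replicates in some comparisons and for none in others. These values cannot show whether such samples share a clone or a batch. With a replicate block, 6 members rose in hHAR123 neuroectoderm against 5 without it, and 4 were called in HAR123-KO neuroectoderm, as without the block.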
